A study of Mus musculus with 10 samples.

Results

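Dendritic cells fall into conventional type 1, conventional type 2 and plasmacytoid kinds, and 8 genes associated with the type 2 and plasmacytoid kinds are described here: the transcription factor genes Irf4, Tcf4 and Runx2 and the surface protein genes Sirpa, Cd209a, Clec10a, Siglech and Ly6d. They were chosen by gene symbol, and all 8 were found among the 16771 genes listed for each library. Expression was measured by RNA-seq in 10 libraries from C57BL/6 mouse bone marrow, in 5 groups of 2 that the submitters describe as biological replicates. Of these groups, 4 were lineage-negative cells, called haematopoietic stem and progenitor cells (HSPC), which are left after magnetic removal of cells that carry mature lineage markers. The double mutant (DM) mice were Npm1flox-cA/+;Flt3ITD/+;Mx1-Cre+, with a Cre-dependent mutant Npm1 allele, an internal tandem duplication in 1 Flt3 allele and Cre recombinase under the interferon-inducible Mx1 promoter. The Npm1c mice were Npm1flox-cA/+;Mx1-Cre+ and the Flt3-ITD mice were Flt3ITD/+. Neutrophils from wild-type (WT) mice, taken with a magnetic neutrophil isolation kit, and WT HSPC made up the remaining groups. Both Npm1-mutant groups carry Mx1-Cre, which is active in many cell types once interferon signalling is on, whereas the Flt3 allele acts wherever Flt3 is expressed. The labels give no age, do not say whether animals were pooled and do not say whether WT mice carried Cre.

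Type 2 dendritic cells present antigen to helper T cells and depend on IRF4. They are recognised in mice by SIRPa (encoded by Sirpa) and, in part, by the lectins encoded by Cd209a and Clec10a. Plasmacytoid dendritic cells make large amounts of type I interferon when nucleic acids reach their Toll-like receptors, and their identity depends on TCF4 (E2-2), with RUNX2 acting in their migration and maturation. Siglech encodes a plasmacytoid surface lectin that signals through the adaptor encoded by Tyrobp, and Ly6d marks lymphoid-primed progenitors with plasmacytoid and B cell potential. None of these genes belongs to one cell type alone: Irf4 is also used by plasma cells and B cells, Sirpa by neutrophils and macrophages, Runx2 by osteoblasts and Ly6d by B cell progenitors.

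The values are RPKM (reads scaled for gene length and library size) as the authors deposited them. The library denominators recovered from the values ran from 40783015 to 57824373 reads. Levels of different genes could not be compared in these units, because the gene length behind each RPKM equalled the summed length of all annotated transcripts for 55.0% of 16046 genes and exceeded the merged exon length by a median factor of 1.54. For Sirpa that factor was 5.46, for Tcf4 3.86, for Siglech 3.79, for Runx2 3.28, for Clec10a 3.03 and for Irf4 1.92, while Ly6d (1.0) and Cd209a (0.93) were close to their merged exons. Ratios of a gene between libraries were not affected. For levels between genes, the RPKM are recomputed with the length of the merged exons (the exon union).

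Differences were tested with limma on log2(RPKM + 0.5), with Benjamini-Hochberg adjustment over all tested genes and a threshold of 0.05. A gene entered the test with at least 1 RPKM in at least 2 of the fitted libraries. In the 8 HSPC libraries 5 of the 8 genes passed this minimum, and Clec10a passed it through the DM libraries alone. Siglech, Tcf4 and Runx2 stayed below it, and their tests come from the exon-union scale, on which all 8 passed, Siglech through the DM libraries alone. A gene that entered in this way had to be higher in DM, so its DM tests give the size of the difference and no support for it. Among all 9702 tested genes 735 entered so, among them the related genes Cd209d, Siglecg, Batf3 and Id3 named below. Log2 changes are printed relative to the median tested gene of the same comparison, which lay at -0.34 in DM against WT HSPC, -0.26 in Npm1c against WT HSPC, -0.14 in Flt3-ITD against WT HSPC and -0.70 in neutrophils against WT HSPC. A gene is said to rise or fall where its deposited change passed the test. A design with 2 libraries against 2 cannot go below p = 0.333 in an exact permutation test of a single gene, so each p-value below rests on the spread shared across genes. That spread is also pooled over all groups in the fit, so libraries outside a comparison affect its p-value. The 3 mutant comparisons share the same WT HSPC libraries.

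Some libraries stood apart. The DM libraries had summed levels of 463 and 474 RPKM over 8 type 1 dendritic markers, against 11.4 to 11.8 RPKM in WT HSPC, and all 8 of these markers rose, 4 of which (Xcr1, Cadm1, Tlr3 and Itgae) entered the test through DM alone. The 14 pan-dendritic and MHC class II genes summed to 7596 and 7653 RPKM in DM, against 74.8 to 76.1 RPKM in WT HSPC, and all 14 rose (Batf3 and Ciita entered through DM alone). The 14 include the regulator genes Batf3, Irf8, Id2 and Nfil3. Type 1 cells depend on the factor encoded by Irf8, so this list is not free of type 1 genes. Beside both lists, 23.9% of all 9702 tested genes rose in DM against WT HSPC. In contrast, 8 stem and progenitor markers summed to 33.1 and 33.6 RPKM in DM, against 134 to 135 RPKM in WT HSPC. The DM libraries labelled HSPC therefore carried little progenitor-marker RNA and much dendritic RNA, and the part of this in each DM result below was not tested. In bulk RNA, fewer cells of a type and less RNA per cell cannot be told apart. The Flt3-ITD replicates differed most, with an SD of 0.234 for the log2 difference between replicates over genes, against 0.166 in Npm1c, 0.0871 in DM, 0.0933 in neutrophils and 0.0901 in WT HSPC. Y-linked genes were expressed in Npm1c replicate 2 and Flt3-ITD replicate 1 only, so the sex of the mice differed within those groups.

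**Figure D1:**
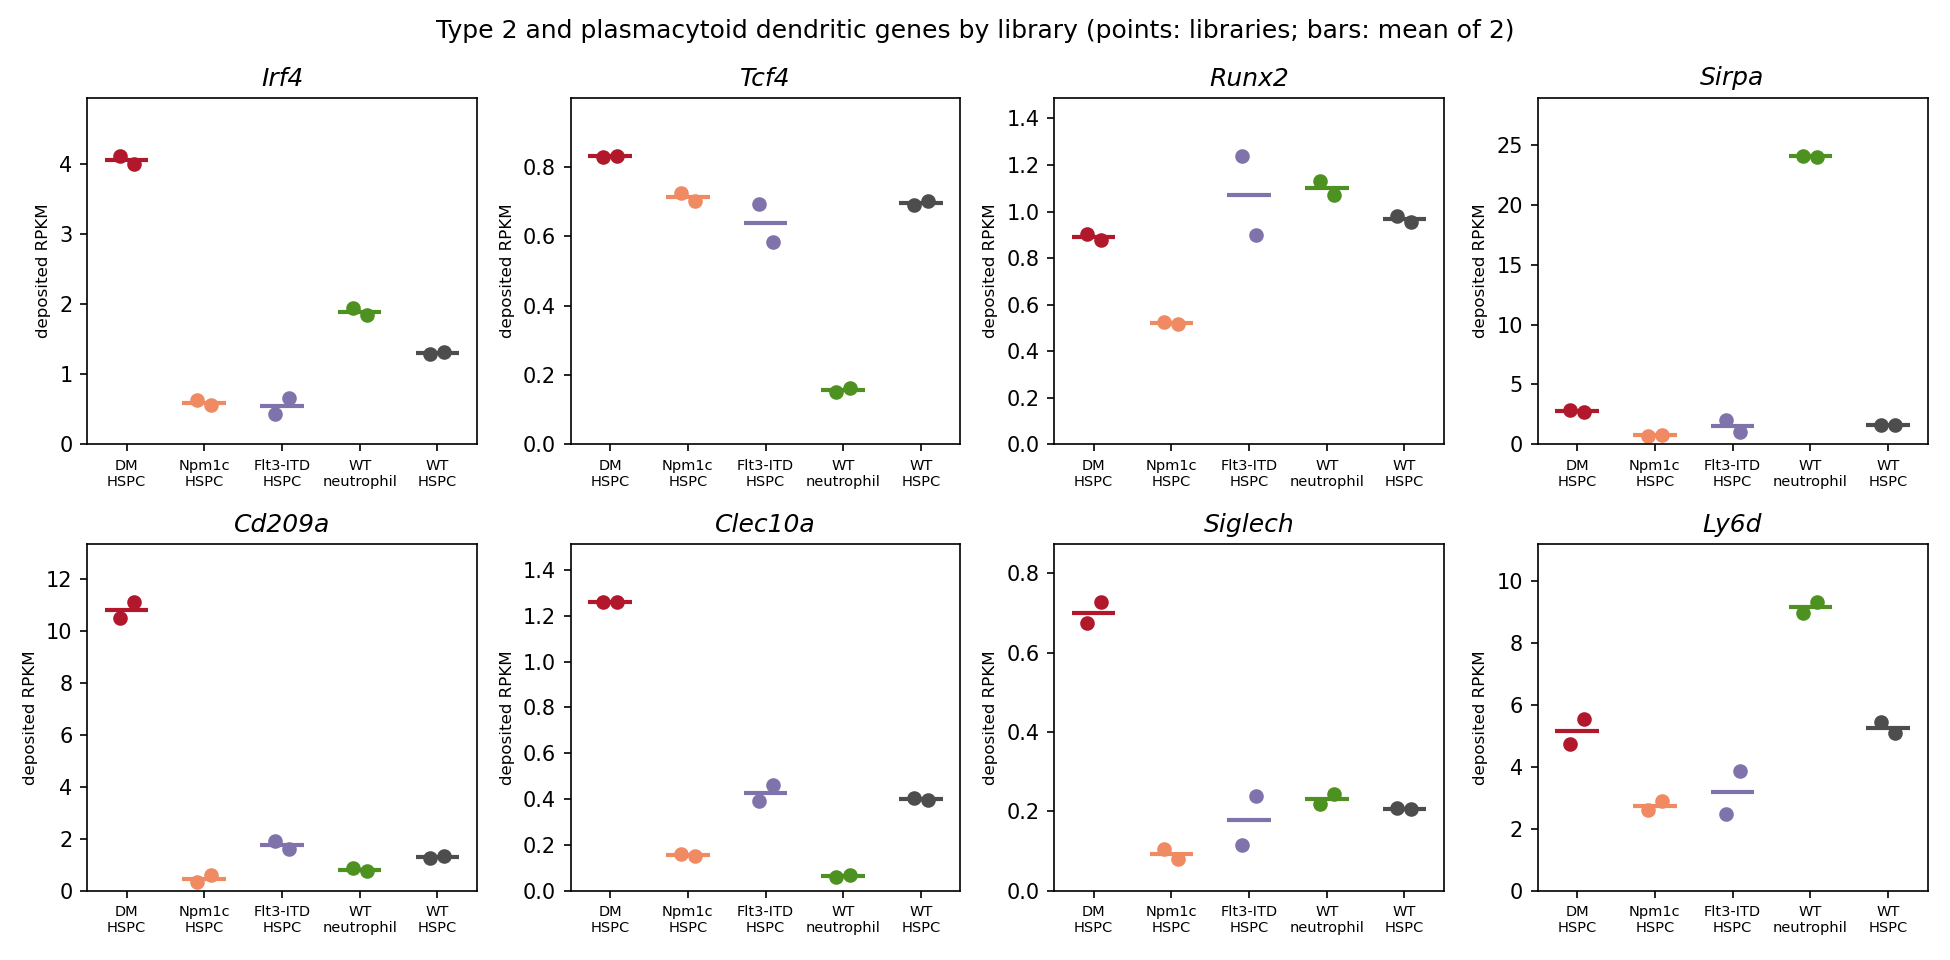
Deposited RPKM (vertical axes, each starting at 0 with its own scale) of the 8 genes in every library, with DM, Npm1c, Flt3-ITD, WT neutrophil and WT HSPC from left to right; points are libraries and bars the mean of 2. Cd209a, Irf4, Clec10a and Siglech were highest in DM, Sirpa and Ly6d were highest in neutrophils, and the Flt3-ITD points lay far apart for Sirpa, Runx2, Siglech and Ly6d.

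Across the 8 genes, the DM libraries had the highest level of Irf4, Cd209a, Clec10a, Siglech and Tcf4 of all 5 groups, and the neutrophil libraries had the highest level of Sirpa and Ly6d. Against WT HSPC, Irf4, Sirpa, Cd209a and Clec10a rose in DM, 4 of 5 tested, where 23.9% of all 9702 tested genes rose and 82.8% changed in either direction. In Npm1c HSPC all 5 tested genes fell, where 58.1% of all genes fell and 60.6% changed. In Flt3-ITD HSPC, Irf4 and Ly6d fell and the other 3 did not pass, where 31.3% of all genes fell and 33.1% changed. These splits depend on scaling over all genes: falls made up 71.2% of all changed genes in DM, 95.9% in Npm1c, 94.4% in Flt3-ITD and 68.8% in neutrophils, against 51.1%, 52.4%, 53.5% and 49.5% in the same order after median-of-ratios scaling. The median relative change of the tested genes was 1.31 in DM, -0.47 in Npm1c and 0.063 in Flt3-ITD, each beside a median of 0 over all tested genes by construction. Since Clec10a was tested only because of its DM level, these counts are no support for a change of the genes as a group.

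Irf4, which encodes the interferon regulatory factor that type 2 dendritic cells require, is on chromosome 13 of GRCm38, from 30749226 to 30766976 on the plus strand. It stood at 4.12 and 4.0 RPKM in DM HSPC, 0.625 and 0.560 RPKM in Npm1c HSPC, 0.428 and 0.667 RPKM in Flt3-ITD HSPC, 1.94 and 1.84 RPKM in neutrophils and 1.29 and 1.32 RPKM in WT HSPC. Both DM libraries were above every other library, both single mutants were below WT HSPC, and the single mutants overlapped each other. Irf4 rose in DM against WT HSPC, with a mean ratio of 3.11 and a relative log2 change of 1.67 ± 0.11 (SE, n = 2 libraries each, limma adjusted p = 1.94e-05). It fell in Npm1c against WT HSPC (mean ratio 0.453, relative log2 change -0.47 ± 0.11, limma adjusted p = 0.00197). It also fell in Flt3-ITD against WT HSPC (mean ratio 0.419, relative log2 change -0.65 ± 0.11, limma adjusted p = 0.00432), where 0.763% of tested genes had a lower change than Irf4. Each single mutation thus went with a lower Irf4 level, and the 2 together with a higher one. The RefSeq promoter of Irf4 (250 bases before the annotated start, GRCm38.p6, plus strand, chr13:30748983-30749232), shown because Irf4 took opposite directions in the single and double mutants, is:
Irf4: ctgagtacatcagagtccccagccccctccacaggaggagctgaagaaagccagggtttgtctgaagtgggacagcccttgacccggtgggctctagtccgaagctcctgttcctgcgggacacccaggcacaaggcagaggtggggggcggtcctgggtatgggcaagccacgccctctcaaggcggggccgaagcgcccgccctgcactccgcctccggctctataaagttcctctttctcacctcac

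The closest relative of Irf4 in dendritic cells is Irf8, which encodes the factor that type 1 dendritic cells depend on. Irf8 stood at 89.0 and 89.0 RPKM in DM HSPC and at 12.7 and 12.8 RPKM in WT HSPC. On the exon-union scale the DM level of Irf8 averaged 139.0 ± 0.0462, against 7.79 ± 0.162 for Irf4 (SD, n = 2). IRF4 binds DNA together with PU.1 (encoded by Spi1) or with BATF family proteins (encoded by Batf and Batf3). In DM against WT HSPC all 3 partner genes rose: Batf3 by a relative log2 change of 4.06 ± 0.055 (limma adjusted p = 1.25e-08), Spi1 by 2.08 ± 0.21 (limma adjusted p = 1.84e-04) and Batf by 0.98 ± 0.14 (limma adjusted p = 0.00413). Plasma cells, which also use Irf4, were set beside it: of 5 tested plasma cell markers 0 rose and 5 fell in DM, where 58.9% of all tested genes fell, with a summed level of 19.7 RPKM in both DM libraries, against 38.3 to 40.9 RPKM in WT HSPC. In Npm1c HSPC the plasma cell markers moved with Irf4, with 5 of 5 tested falling, beside 58.1% of all tested genes, and a summed level of 19.7 to 23.9 RPKM. In Flt3-ITD HSPC 4 of 5 fell, beside 31.3% of all tested genes, with a sum of 22.8 to 26.9 RPKM. The part of plasma cell RNA in the lower Irf4 level of the single mutants was not tested.

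Tcf4 encodes the E protein that keeps plasmacytoid cells in their identity, and is on chromosome 18 of GRCm38, from 69343356 to 69689079 on the plus strand. It stood at 0.830 and 0.833 RPKM in DM HSPC, 0.726 and 0.701 RPKM in Npm1c HSPC, 0.694 and 0.584 RPKM in Flt3-ITD HSPC, 0.151 and 0.163 RPKM in neutrophils and 0.692 and 0.702 RPKM in WT HSPC. The DM pair was above all others by a small margin, Npm1c, Flt3-ITD and WT HSPC overlapped as neighbours in the order, and neutrophils were far below every HSPC library. These low RPKM values hide many reads, from 3103 to 4293 per HSPC library and 651 and 741 in neutrophils, because of the long summed transcript length. On the exon-union scale, where 81.9% of all tested genes changed in DM against WT HSPC, Tcf4 rose there with a mean ratio of 1.19 (relative log2 change 0.56 ± 0.08, limma adjusted p = 0.0372). Without a minimum level on the deposited scale, that call was lost (limma adjusted p = 0.0682). In neutrophils, where 90.8% of all genes changed on the exon-union scale, Tcf4 fell against WT HSPC, with a mean ratio of 0.225 (exon-union scale, relative log2 change -0.79 ± 0.075, limma adjusted p = 7.39e-08).

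The other E protein genes, Tcf3 and Tcf12, went the other way in DM. Tcf3 stood at 2.60 and 2.61 RPKM in DM HSPC and 6.13 and 6.33 RPKM in WT HSPC (relative log2 change -0.78 ± 0.053, limma adjusted p = 1.99e-06). Tcf12 stood at 1.22 and 1.19 RPKM in DM HSPC and 2.42 and 2.36 RPKM in WT HSPC (relative log2 change -0.43 ± 0.058, limma adjusted p = 1.57e-05). ID proteins bind E proteins and keep them off DNA, and Id2 is known to oppose plasmacytoid fate. Id2 stood at 214 and 205 RPKM in DM HSPC and 2.94 and 2.81 RPKM in WT HSPC, a relative log2 change of 6.30 ± 0.15 (limma adjusted p = 1.09e-07). Id3 also rose (2.45 ± 0.058, limma adjusted p = 1.86e-07), as did Cbfa2t3 (2.10 ± 0.10, limma adjusted p = 4.83e-06), which encodes a cofactor of TCF4, while Id1 did not pass the test at 0.678 and 0.632 RPKM in DM HSPC and 0.925 and 0.910 RPKM in WT HSPC.

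Runx2 encodes a Runt-domain factor used by plasmacytoid cells and by bone-forming cells, and is on chromosome 17 of GRCm38, from 44495987 to 44814797 on the minus strand. It stood at 0.903 and 0.877 RPKM in DM HSPC, 0.526 and 0.516 RPKM in Npm1c HSPC, 1.24 and 0.899 RPKM in Flt3-ITD HSPC, 1.13 and 1.07 RPKM in neutrophils and 0.981 and 0.957 RPKM in WT HSPC. Npm1c was the only group clearly apart, below all other libraries, and the Flt3-ITD pair overlapped DM and lay on both sides of the WT HSPC and neutrophil pairs. On the exon-union scale, where 58.2% of all genes fell and 60.7% changed in Npm1c against WT HSPC, Runx2 fell there with a mean ratio of 0.537 (relative log2 change -0.46 ± 0.12, limma adjusted p = 0.00288). In DM against WT HSPC it did not pass (mean ratio 0.918, limma adjusted p = 0.448), so of the 3 transcription factor genes it was the 1 without a call there. Against Npm1c HSPC it rose in DM (mean ratio 1.71, exon-union scale, limma adjusted p = 0.00230), where 77.5% of all genes changed. Runx2 shares 37646 bases with Supt3 and shorter stretches with 3 antisense genes on the opposite strand, and whether counting used the strand is not given in the sources used here.

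Runx1 and Runx3, the other Runt-domain genes, did not pass in DM against WT HSPC either. Runx1 stood at 5.25 and 5.4 RPKM in DM HSPC and 4.24 and 4.08 RPKM in WT HSPC (limma adjusted p = 0.0649). Runx3 stood at 3.97 and 3.77 RPKM in DM HSPC and 3.43 and 3.32 RPKM in WT HSPC (limma adjusted p = 0.180). Cbfb, which encodes their shared DNA-binding partner, rose, at 10.8 and 10.7 RPKM in DM HSPC and 6.99 and 7.11 RPKM in WT HSPC (relative log2 change 0.91 ± 0.16, limma adjusted p = 0.0107). Stromal and bone-forming markers, which could bring in Runx2, summed to 2.87 and 2.97 RPKM in DM HSPC, 7.90 and 8.49 RPKM in Npm1c HSPC, 2.92 and 5.65 RPKM in Flt3-ITD HSPC and 11.9 to 12.5 RPKM in WT HSPC. Their part in the Runx2 levels was not tested.

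Cd209a, the mouse gene for a DC-SIGN family lectin that binds sugars on microbes, had the strongest rise in DM of the tested genes. It is on chromosome 8 of GRCm38, from 3743397 to 3748984 on the minus strand. It stood at 10.5 and 11.1 RPKM in DM HSPC, 0.314 and 0.579 RPKM in Npm1c HSPC, 1.90 and 1.59 RPKM in Flt3-ITD HSPC, 0.863 and 0.740 RPKM in neutrophils and 1.25 and 1.31 RPKM in WT HSPC. No neighbouring groups overlapped in this order, in which DM was followed by Flt3-ITD, WT HSPC, neutrophils and Npm1c. The levels rest on 690 and 793 reads in DM HSPC and on 25 and 46 reads in Npm1c HSPC, so the Npm1c level is the least precise. Cd209a rose in DM against WT HSPC with a mean ratio of 8.44 (relative log2 change 3.00 ± 0.13, limma adjusted p = 2.47e-06), and 3.01% of tested genes had a higher change. It fell in Npm1c against WT HSPC with a mean ratio of 0.349 (relative log2 change -0.66 ± 0.13, limma adjusted p = 0.00195). In Flt3-ITD against WT HSPC the mean ratio was 1.36 and the test was not passed (relative log2 change 0.47 ± 0.13, limma adjusted p = 0.0973), although both libraries were above both WT HSPC libraries. That result passed on leaving out Npm1c replicate 1 or replicate 2 (limma adjusted p = 0.0339 each) and after median-of-ratios scaling (0.0454). The RefSeq promoter of Cd209a (GRCm38.p6, minus strand, chr8:3748985-3749234), shown because this gene changed most in DM, is:
Cd209a: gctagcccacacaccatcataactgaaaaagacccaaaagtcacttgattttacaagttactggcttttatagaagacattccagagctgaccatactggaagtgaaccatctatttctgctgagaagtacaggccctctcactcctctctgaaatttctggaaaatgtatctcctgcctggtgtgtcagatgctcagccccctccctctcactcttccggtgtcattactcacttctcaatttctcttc

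Of the other Cd209 genes, 4 were listed and only Cd209d was high enough to test. Cd209d stood at 1.68 and 1.57 RPKM in DM HSPC, 0.0204 and 0.184 RPKM in Npm1c HSPC, 0.160 and 0.613 RPKM in Flt3-ITD HSPC and 0.179 and 0.114 RPKM in WT HSPC. It rose in DM against WT HSPC with Cd209a (relative log2 change 2.06 ± 0.24, limma adjusted p = 3.65e-04). Reads of related genes can be split between them, depending on the counting, which is not stated, and this was not measured. Cd209c, Cd209e and Cd209f were at or below 0.101 RPKM in every library.

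Sirpa encodes a receptor that delivers an inhibitory signal on binding CD47, and is on chromosome 2 of GRCm38, from 129592835 to 129632228 on the plus strand. It stood at 2.87 and 2.73 RPKM in DM HSPC, 0.719 and 0.788 RPKM in Npm1c HSPC, 2.00 and 1.06 RPKM in Flt3-ITD HSPC, 24.1 and 24 RPKM in neutrophils and 1.57 and 1.60 RPKM in WT HSPC. Neutrophils were far above all HSPC libraries, DM was next, and the Flt3-ITD pair fell on both sides of WT HSPC. Sirpa rose in DM against WT HSPC with a mean ratio of 1.77 (relative log2 change 1.0 ± 0.19, limma adjusted p = 0.0146) and fell in Npm1c against WT HSPC with a mean ratio of 0.475 (relative log2 change -0.47 ± 0.19, limma adjusted p = 0.0155). The DM call was lost without WT HSPC replicate 1, WT HSPC replicate 2 or DM replicate 1. The deposited log2 change there was 0.65, 0.67 and 0.63 in that order, against 0.66 with all libraries. The Npm1c call was lost without WT HSPC replicate 1, WT HSPC replicate 2, Npm1c replicate 1 or Npm1c replicate 2. The deposited log2 change there was -0.75, -0.73, -0.70 and -0.77 in that order, against -0.74 with all libraries. These tests use a spread pooled over the HSPC groups. The SD of Sirpa was 0.667 RPKM in Flt3-ITD HSPC, against 0.103 in DM HSPC, 0.0486 in Npm1c HSPC and 0.0211 in WT HSPC.

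In Flt3-ITD against WT HSPC the direction of Sirpa depended on the library: without Flt3-ITD replicate 2 the deposited log2 change was 0.26 (limma adjusted p = 0.0160), and without Flt3-ITD replicate 1 it was -0.42 (0.00189). Of the Sirpa partners, Ptpn6, which encodes a phosphatase recruited by the receptor, rose in DM (relative log2 change 0.96 ± 0.10, limma adjusted p = 8.95e-04), Ptpn11 fell on the deposited scale (-0.09 ± 0.063 relative to the median gene, limma adjusted p = 5.10e-04), and Cd47 did not pass at 41.9 and 42.0 RPKM in DM HSPC and 41.8 and 40.5 RPKM in WT HSPC. The paralogues Sirpb1a, Sirpb1b and Sirpb1c were at or below 0.240 RPKM in every HSPC library. In neutrophils, where Sirpb1b reached 10.3 and 10.7 RPKM, reads of these similar genes could be split with Sirpa.

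Clec10a encodes a galactose-binding lectin of type 2 dendritic cells and macrophages, and is on chromosome 11 of GRCm38, from 70156197 to 70170834 on the plus strand. It stood at 1.26 RPKM in both DM libraries, 0.161 and 0.150 RPKM in Npm1c HSPC, 0.392 and 0.460 RPKM in Flt3-ITD HSPC, 0.0586 and 0.0662 RPKM in neutrophils and 0.405 and 0.394 RPKM in WT HSPC. DM was highest, Flt3-ITD and WT HSPC overlapped, Npm1c was lower and neutrophils were lowest, with 21 and 25 reads. In DM against WT HSPC Clec10a rose with a mean ratio of 3.16 (relative log2 change 1.31 ± 0.059, limma adjusted p = 5.71e-06), and in Npm1c against WT HSPC it fell with a mean ratio of 0.389 (relative log2 change -0.20 ± 0.059, limma adjusted p = 0.00137). The added 0.5 compresses changes of so low a gene, and on the exon-union scale the same relative log2 changes were 1.68 ± 0.077 in DM and -0.54 ± 0.077 in Npm1c. Its neighbouring paralogue Mgl2, another type 2 dendritic and macrophage lectin gene, stayed under the minimum on the deposited scale, at 0.394 and 0.489 RPKM in DM HSPC and 0.527 and 0.508 RPKM in WT HSPC. On the exon-union scale Mgl2 was tested, with means of 1.16 in DM HSPC and 1.36 in WT HSPC. It did not pass there in DM against WT HSPC, where 81.9% of all tested genes changed.

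Siglech, the gene of a plasmacytoid sialic acid-binding lectin, is on chromosome 7 of GRCm38, from 55768178 to 55778925 on the plus strand. It stood at 0.674 and 0.728 RPKM in DM HSPC, 0.104 and 0.0798 RPKM in Npm1c HSPC, 0.116 and 0.238 RPKM in Flt3-ITD HSPC, 0.218 and 0.243 RPKM in neutrophils and 0.207 and 0.206 RPKM in WT HSPC. Only the DM libraries stood clearly above the rest, and the Flt3-ITD pair overlapped WT HSPC and neutrophils. Flt3-ITD against WT HSPC did not pass (mean ratio 0.856, exon-union scale, limma adjusted p = 0.508), in a comparison where 33.0% of all genes changed. On the exon-union scale Siglech rose in DM against WT HSPC with a mean ratio of 3.39 (relative log2 change 1.64 ± 0.17, limma adjusted p = 2.48e-04), with the limit that its DM values alone brought it into the test, and it fell in Npm1c against WT HSPC with a mean ratio of 0.445 (-0.32 ± 0.17, limma adjusted p = 0.0205). Without a minimum level on the deposited scale the DM call held (limma adjusted p = 3.96e-04) and the Npm1c call did not (0.0583). Tyrobp, the gene of its signalling adaptor, rose in DM, at 279 and 265 RPKM in DM HSPC and 78.4 and 84.1 RPKM in WT HSPC (relative log2 change 2.07 ± 0.24, limma adjusted p = 3.40e-04), and Hcst, a related adaptor gene, did not pass (limma adjusted p = 0.473). Among the related lectin genes Siglecg was the only 1 tested on the deposited scale, and it rose in DM (relative log2 change 1.98 ± 0.088, limma adjusted p = 3.29e-06).

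From the promoter table, 4 of the 8 genes were searched on both strands: Irf4, Runx2, Cd209a and Siglech. Promoters of the other genes, Tcf4 among them, were not searched. The search covered the RUNX motif TGTGGT, the E protein motifs CAGGTG and CAGCTG, and 2 IRF motifs. The IRF motifs were GAAA followed after any 2 bases by GAAA and GGAA followed after any 2 bases by GAAA. Siglech is shown because, of the 4 searched, it alone matched both kinds of plasmacytoid factor motif. It held TGTGGT on the minus strand 115 to 110 bases before its start. It also held CAGGTG on the minus strand 20 to 15 bases before its start, and both are in capitals here (GRCm38.p6, plus strand, chr7:55767934-55768183):
Siglech: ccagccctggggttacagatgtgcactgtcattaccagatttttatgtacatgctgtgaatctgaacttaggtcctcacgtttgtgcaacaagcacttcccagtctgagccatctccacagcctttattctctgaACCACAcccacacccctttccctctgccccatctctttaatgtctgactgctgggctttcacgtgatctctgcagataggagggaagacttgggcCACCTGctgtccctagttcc
Runx2 held TGTGGT on the minus strand 80 to 75 bases before its RefSeq start, and no other match was found in the 4 windows. The Runx2 window (minus strand, chr17:44814628-44814877) lies partly inside the gene span given above, which runs to 44814797, so the 2 annotations differ in the start. Of all 32851 promoters of the same table, 14% held TGTGGT, 17.2% CAGGTG, 13% CAGCTG, 2.98% the first IRF motif and 2.3% the second, so a match is not rare, and neither a match nor its absence shows whether a factor binds.

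Ly6d encodes a small GPI-anchored protein of lymphoid progenitors, and is on chromosome 15 of GRCm38, from 74762056 to 74763620 on the minus strand. It stood at 4.74 and 5.54 RPKM in DM HSPC, 2.60 and 2.89 RPKM in Npm1c HSPC, 2.48 and 3.87 RPKM in Flt3-ITD HSPC, 8.97 and 9.32 RPKM in neutrophils and 5.44 and 5.09 RPKM in WT HSPC. Neutrophils were highest, DM and WT HSPC overlapped, and both single mutants were below WT HSPC and overlapped each other. Ly6d was therefore the tested gene that did not pass in DM against WT HSPC (mean ratio 0.977, relative log2 change 0.30 ± 0.17, limma adjusted p = 0.860). It fell in Npm1c (mean ratio 0.522, relative log2 change -0.57 ± 0.17, limma adjusted p = 0.00658) and in Flt3-ITD (mean ratio 0.603, relative log2 change -0.53 ± 0.17, limma adjusted p = 0.0245) against WT HSPC. The Flt3-ITD call was lost without WT HSPC replicate 1 (limma adjusted p = 0.128) or replicate 2 (0.10) and after median-of-ratios scaling (0.116), which also ended the Npm1c call (0.0588). The B cell marker list, which shares progenitors with Ly6d, had 3 of 12 genes tested and none called in DM against WT HSPC, Npm1c against WT HSPC or Flt3-ITD against WT HSPC. Its summed level was 10.1 and 15.0 RPKM in DM HSPC, 7.47 and 11.3 RPKM in Npm1c HSPC, 6.62 and 10.7 RPKM in Flt3-ITD HSPC, 18.4 and 18.9 RPKM in neutrophils and 9.02 and 9.52 RPKM in WT HSPC, and its part in the Ly6d levels was not tested. Of the Ly6 relatives, Ly6a (Sca-1) rose in DM (relative log2 change 1.56 ± 0.12, limma adjusted p = 4.89e-05), as did Ly6e (0.93 ± 0.18, limma adjusted p = 0.0162), and Ly6c2 and Ly6g did not pass.

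**Figure D2:**
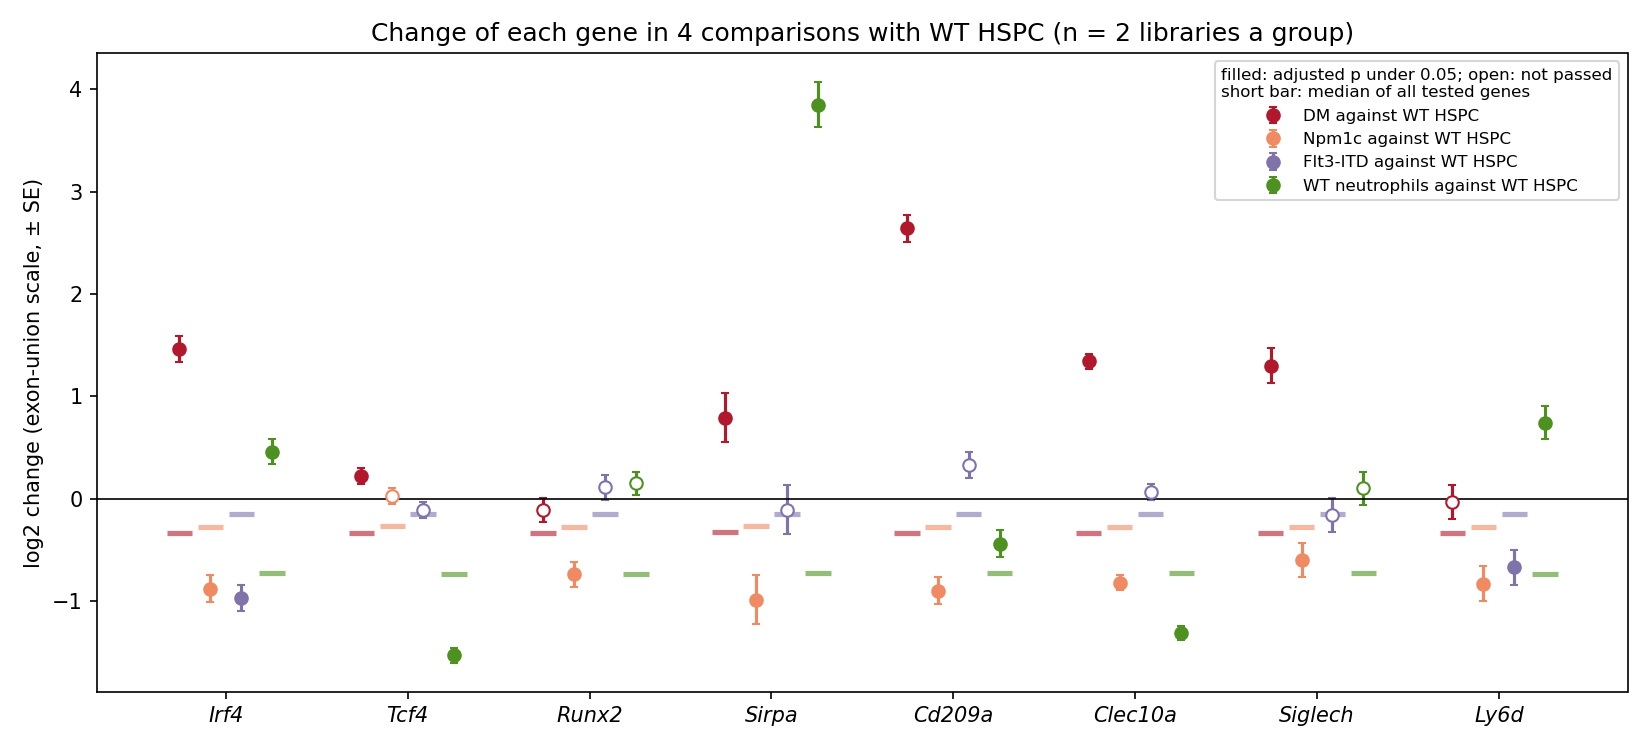
Log2 change (vertical axis, exon-union scale, with SE) of the 8 genes in DM, Npm1c, Flt3-ITD and WT neutrophils, each against WT HSPC; filled points passed the limma test at 0.05, open points did not, and short bars mark the median of all tested genes in the same comparison. DM points lay highest of the mutants for every gene but Runx2, where the Flt3-ITD point was higher, and 7 Npm1c points were filled and below 0.

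Set directly against the single mutants, DM had higher levels of all 5 tested genes. Clec10a entered the test through DM alone, so its ratios here are sizes and no support. Against Npm1c HSPC, 34.4% of all tested genes rose and 77.4% changed, and the mean ratios were 24.2 for Cd209a, 8.11 for Clec10a, 6.85 for Irf4, 3.72 for Sirpa and 1.87 for Ly6d (limma adjusted p from 6.37e-07 to 0.00391). Against Flt3-ITD HSPC, 28.6% rose and 77.4% changed, with falls making up 63.0% of all changed genes and 50.9% after median-of-ratios scaling. The mean ratios there were 7.42 for Irf4, 6.19 for Cd209a, 2.96 for Clec10a, 1.83 for Sirpa and 1.62 for Ly6d (limma adjusted p from 2.93e-06 to 0.0107). Without DM replicate 2, Ly6d lost its call against Flt3-ITD HSPC (limma adjusted p = 0.0649) and Clec10a was no longer tested, which left 3 of 4 tested genes called. Among the genes below the minimum, Siglech had mean ratios of 7.62 against Npm1c HSPC and 3.96 against Flt3-ITD HSPC, both past the test on the exon-union scale (limma adjusted p = 3.80e-05 and 1.60e-04), on which 77.5% and 77.3% of all genes changed. Siglech entered the test on that scale through DM alone, so its ratios too are sizes and no support.

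The interaction contrast asks whether the DM change differs from the sum of the Npm1c and Flt3-ITD changes on the log2 scale. It was positive and past the test for all 5 tested genes, of which Clec10a was tested through its DM level alone, where 39.2% of all tested genes had a positive call and 66.8% a call in either direction. The deposited log2 interaction was 3.26 ± 0.19 for Cd209a (limma adjusted p = 1.07e-05) and 2.86 ± 0.15 for Irf4 (limma adjusted p = 6.38e-06). It was 1.48 ± 0.27 for Sirpa (limma adjusted p = 0.00252), 1.47 ± 0.24 for Ly6d (limma adjusted p = 0.00143) and 1.39 ± 0.083 for Clec10a (limma adjusted p = 1.29e-05). The order depended on the scale, with 2.09 ± 0.11 for Clec10a and 1.89 ± 0.34 for Sirpa on the exon-union scale. Ly6d is a case apart, since its DM level overlapped WT HSPC while each single mutant lay below it. On the exon-union scale, where 67.0% of all genes had a call, Siglech (2.06 ± 0.24, limma adjusted p = 2.55e-04) and Runx2 (0.52 ± 0.17, limma adjusted p = 0.0316) also passed, and Tcf4 did not (limma adjusted p = 0.0507). Siglech entered that test through DM alone, and the Runx2 call was lost without a minimum level on the deposited scale (limma adjusted p = 0.0962).

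In WT neutrophils against WT HSPC the genes split. Sirpa, Ly6d and Irf4 rose, Cd209a and Clec10a fell on the deposited scale, and Runx2 did not pass, of 6 tested, where 28.4% of all tested genes rose, 62.8% fell and 91.2% changed. Sirpa had a mean ratio of 15.2 (relative log2 change 4.26 ± 0.18, limma adjusted p = 1.14e-07), Ly6d 1.74 (1.44 ± 0.16, limma adjusted p = 0.00190) and Irf4 1.45 (1.1 ± 0.10, limma adjusted p = 0.00378). Clec10a had a mean ratio of 0.156 and Cd209a of 0.627, but relative to the median gene their changes were 0.021 ± 0.049 and 0.25 ± 0.13. The added 0.5 compresses the Clec10a change here too. On the exon-union scale, where 90.8% of all genes changed, it was -0.58 ± 0.069 relative to the median gene (limma adjusted p = 1.12e-07). That of Cd209a was 0.29 ± 0.13 on the same scale. After median-of-ratios scaling Cd209a turned to 0.12 (limma adjusted p = 0.329). The Cd209a call was also lost without neutrophil replicate 2 (limma adjusted p = 0.0586). With an equal total of the listed genes, the Irf4 call was lost at a deposited log2 change of 0.074 (limma adjusted p = 0.540) and the Ly6d call at 0.34 (limma adjusted p = 0.107). Runx2 passed after median-of-ratios scaling, at 0.71 (limma adjusted p = 7.16e-06). At a change of 0.12 it also passed with other samples in the fit (limma adjusted p = 0.0374), without Flt3-ITD replicate 1 (0.0210) or replicate 2 (0.0212), and without both libraries that express Y-linked genes (0.0209). Siglech stood close to WT HSPC in neutrophils (mean ratio 1.12, exon-union scale, limma adjusted p = 0.574). The 8 neutrophil markers summed to 97552 and 97828 RPKM in neutrophils and to 55.7 and 74.2 RPKM in WT HSPC. In DM HSPC, where Sirpa also rose, they summed to 87.2 and 102 RPKM. In Npm1c HSPC, where Sirpa fell, they summed to 86.8 and 407 RPKM. In Flt3-ITD HSPC, where Sirpa did not pass, they summed to 256 and 295 RPKM. Their part in the Sirpa levels was not tested.

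Other type 2 and plasmacytoid genes, from lists chosen with earlier results of these data known, mostly rose in DM, with exceptions. Of 16 further type 2 genes, 10 were tested in DM against WT HSPC, 8 rose and 2 fell, with a median relative log2 change of 1.79, where 23.9% of all tested genes rose and 58.9% fell. Relb and Ltb entered the test through DM alone. Of the other 8 genes 6 rose and 2 fell. Those with the smallest adjusted p were Relb, a non-canonical NF-kB gene (2.68 ± 0.063, limma adjusted p = 1.70e-07), Notch2, the receptor that a splenic type 2 subset needs (1.85 ± 0.046, limma adjusted p = 2.74e-07), and Cd7 (2.74 ± 0.11, limma adjusted p = 1.96e-06). The 2 that fell were Zeb2, which encodes a repressor active in plasmacytoid and type 2 cells (-0.68 ± 0.088, limma adjusted p = 3.04e-05), and Esam, a junction protein gene also used by stem cells (-1.74 ± 0.16, limma adjusted p = 1.88e-05). Esam stood at 0.131 and 0.135 RPKM in DM HSPC and 2.10 and 2.26 RPKM in WT HSPC. These type 2 genes are not particular to dendritic cells: the 16 summed to 324 to 328 RPKM in neutrophils, against 129 to 129.9 RPKM in DM HSPC. Notch2 averaged 70.2 RPKM in neutrophils and 54.1 RPKM in DM HSPC. Relb (0.428 and 2.52 RPKM) and Cd7 (1.63 and 13.3 RPKM) were lower in neutrophils than in DM HSPC. Itgam, which encodes CD11b of many type 2 cells, was too low to test in HSPC on the deposited scale, at 0.930 and 0.880 RPKM in DM HSPC and 0.464 and 0.440 RPKM in WT HSPC. On the exon-union scale it reached the minimum, averaging 4.77 ± 0.186 in DM HSPC and 2.38 ± 0.0915 in WT HSPC (SD, n = 2). Of the 11 type 2 genes tested there that did not enter through DM alone, 8 rose and 2 fell. In that comparison 24.2% of all 10099 tested genes rose and 57.7% fell. The lineage depletion that defines the samples commonly targets CD11b, and the labels do not list its antibodies.

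Of 18 further plasmacytoid genes, 13 were tested in DM against WT HSPC, 10 rose, 1 fell and 2 did not pass, with a median relative log2 change of 2.16, beside the same 23.9% and 58.9% of all tested genes. Of these 13, 7 entered the test through DM alone (Atp1b1, Cd300c, Cd8a, Klk1, Lag3, Spib and Tlr9). Of the other 6 genes 3 rose and 1 fell, so the count of rises was partly set by the minimum. Tlr9, the receptor for microbial DNA, had a relative log2 change of 4.10 ± 0.082 (limma adjusted p = 6.62e-08), Irf7, the factor behind interferon production, 3.19 ± 0.079 (limma adjusted p = 1.86e-07), and Cd8a 2.85 ± 0.054 (limma adjusted p = 6.21e-08). All 3 are also expressed by other cells, and Cd8a and Tlr9 are found in type 1 dendritic cells of mice. Bcl11a, a factor upstream of Tcf4 in plasmacytoid cells, was the gene that fell, at 4.84 and 4.73 RPKM in DM HSPC and 6.01 and 5.52 RPKM in WT HSPC (limma adjusted p = 0.0174). Relative to the median gene its change was 0.092 ± 0.074, and after median-of-ratios scaling no gene of this list fell and 11 of 14 rose. With that scaling 38.0% of all 9698 tested genes rose and 39.8% fell. How many of the 14 reached the minimum through DM alone with that scaling was not counted. The 5 genes of this list that did not reach the test on the deposited scale are given by their values. Ccr9 stood at 0.658 and 0.632 RPKM in DM HSPC and 0.137 and 0.122 RPKM in WT HSPC. Pacsin1 stood at 0.256 and 0.295 RPKM in DM HSPC and 0.0199 and 0.0121 RPKM in WT HSPC. Tlr7 stood at 1.08 and 0.960 RPKM in DM HSPC and 0.189 and 0.232 RPKM in WT HSPC. All 3 had both DM libraries above both WT HSPC libraries. Mctp2 stood at 0.597 and 0.587 RPKM in DM HSPC and 0.527 and 0.492 RPKM in WT HSPC. Cox6a2 stood at 0.481 and 0.567 RPKM in DM HSPC and 0.828 and 0.818 RPKM in WT HSPC.

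In Npm1c against WT HSPC, 7 of these 10 type 2 genes and 8 of these 13 plasmacytoid genes fell and none rose, beside 58.1% of all tested genes that fell, and the median relative log2 changes were -0.31 and -0.14. In Flt3-ITD against WT HSPC, Cd7 rose and Esam, Notch2 and Zeb2 fell among 10 type 2 genes, and Klk1 rose and none fell among 13 plasmacytoid genes, with medians of 0.012 and 0.26, beside 31.3% of all tested genes that fell. Monocyte and macrophage markers, of which some are shared with type 2 cells, had 8 of 11 tested rising and 1 falling in DM against WT HSPC. In that comparison 23.9% of all tested genes rose and 58.9% fell. Of the 11, 4 entered through DM alone, and of the other 7 genes 4 rose and 1 fell. These markers had a median of 1.51 and a summed level of 308 and 316 RPKM in DM HSPC, against 190.4 to 193 RPKM in WT HSPC. Their part in the DM levels of Sirpa, Cd209a and Clec10a was not tested.

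**Figure D3:**
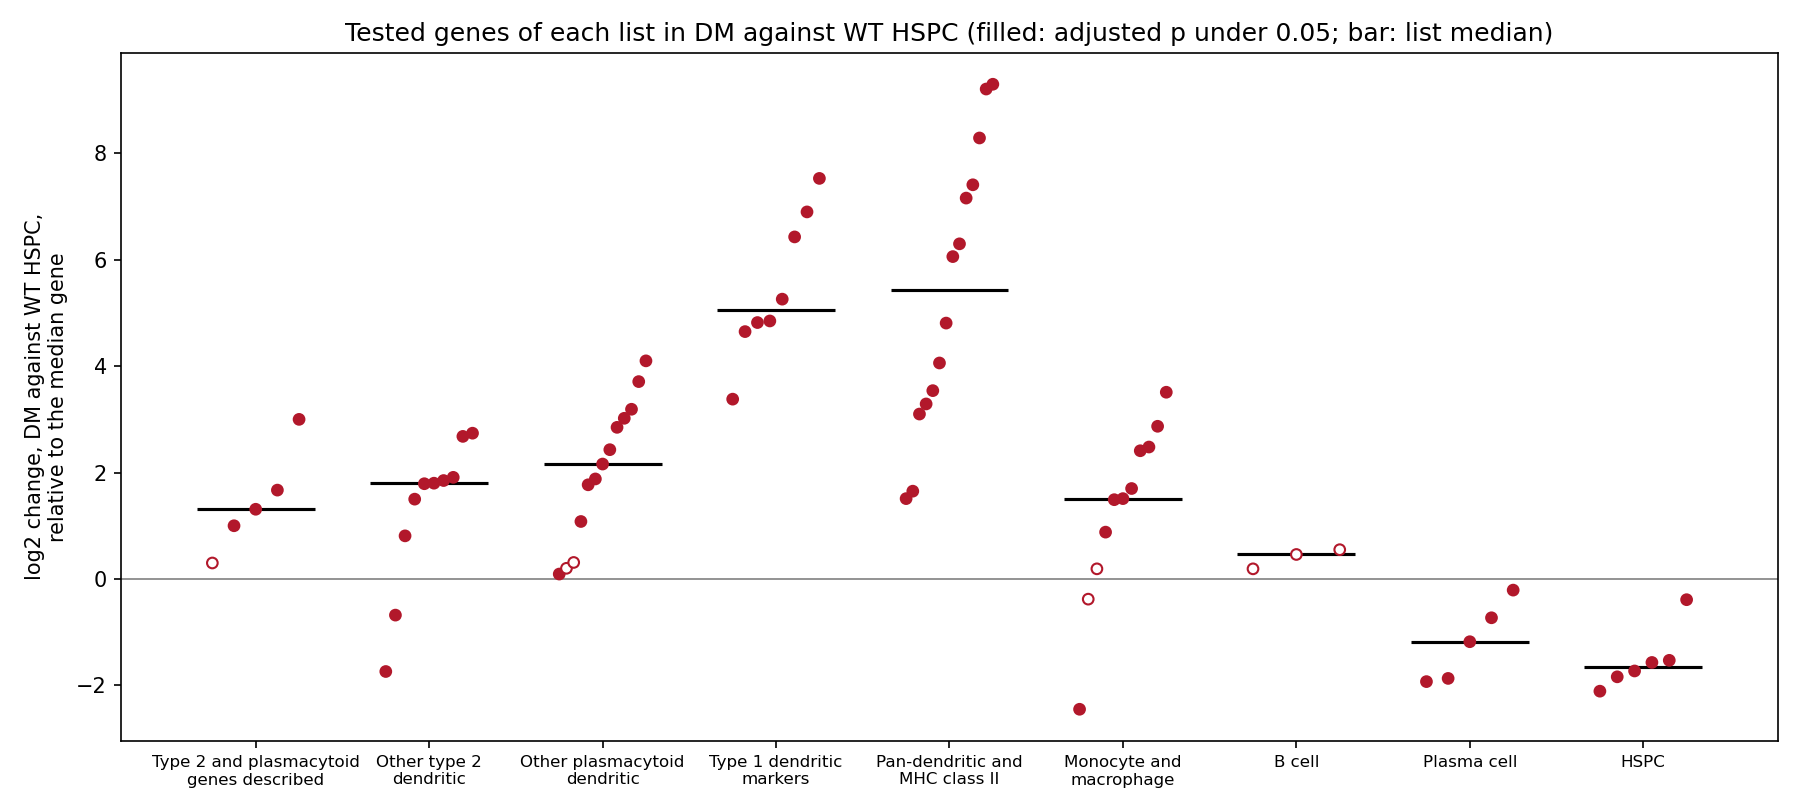
Log2 change relative to the median gene (vertical axis) in DM against WT HSPC of each tested gene, by list, with the list median as a bar; filled points passed the limma test at 0.05. The genes described here had a median of 1.31, the other type 2 and plasmacytoid lists 1.79 and 2.16, the type 1 markers 5.06, the pan-dendritic and MHC class II genes 5.44, and the stem and progenitor markers -1.65. The pan-dendritic list includes Irf8, the gene of a type 1 factor, with Batf3, Id2 and Nfil3.

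Levels per merged exon length place the 8 genes beside type 1 dendritic markers in the same libraries. In DM HSPC, Sirpa averaged 15.3 ± 0.564, Cd209a 10.1 ± 0.38, Irf4 7.79 ± 0.162, Ly6d 5.12 ± 0.569, Clec10a 3.82 ± 0.00598, Tcf4 3.21 ± 0.00916, Runx2 2.91 ± 0.0614 and Siglech 2.66 ± 0.145 RPKM on the exon-union scale (SD, n = 2). The 8 type 1 markers lay between 25 ± 0.407 for Cadm1 and 223.0 ± 3.07 for Wdfy4 on this scale in DM HSPC, all above Sirpa, while in WT HSPC Cadm1 was at 0.044 ± 0.00137 and Wdfy4 at 10.3 ± 0.0329. In WT HSPC the 8 genes ran from 0.784 ± 0.00222 for Siglech to 8.66 ± 0.115 for Sirpa. Xcr1, a chemokine receptor gene of type 1 cells, averaged 108.0 ± 2.43 in DM HSPC against 0.239 ± 0.0467 in WT HSPC on the same scale. These levels are not cell numbers.

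**Figure D4:**
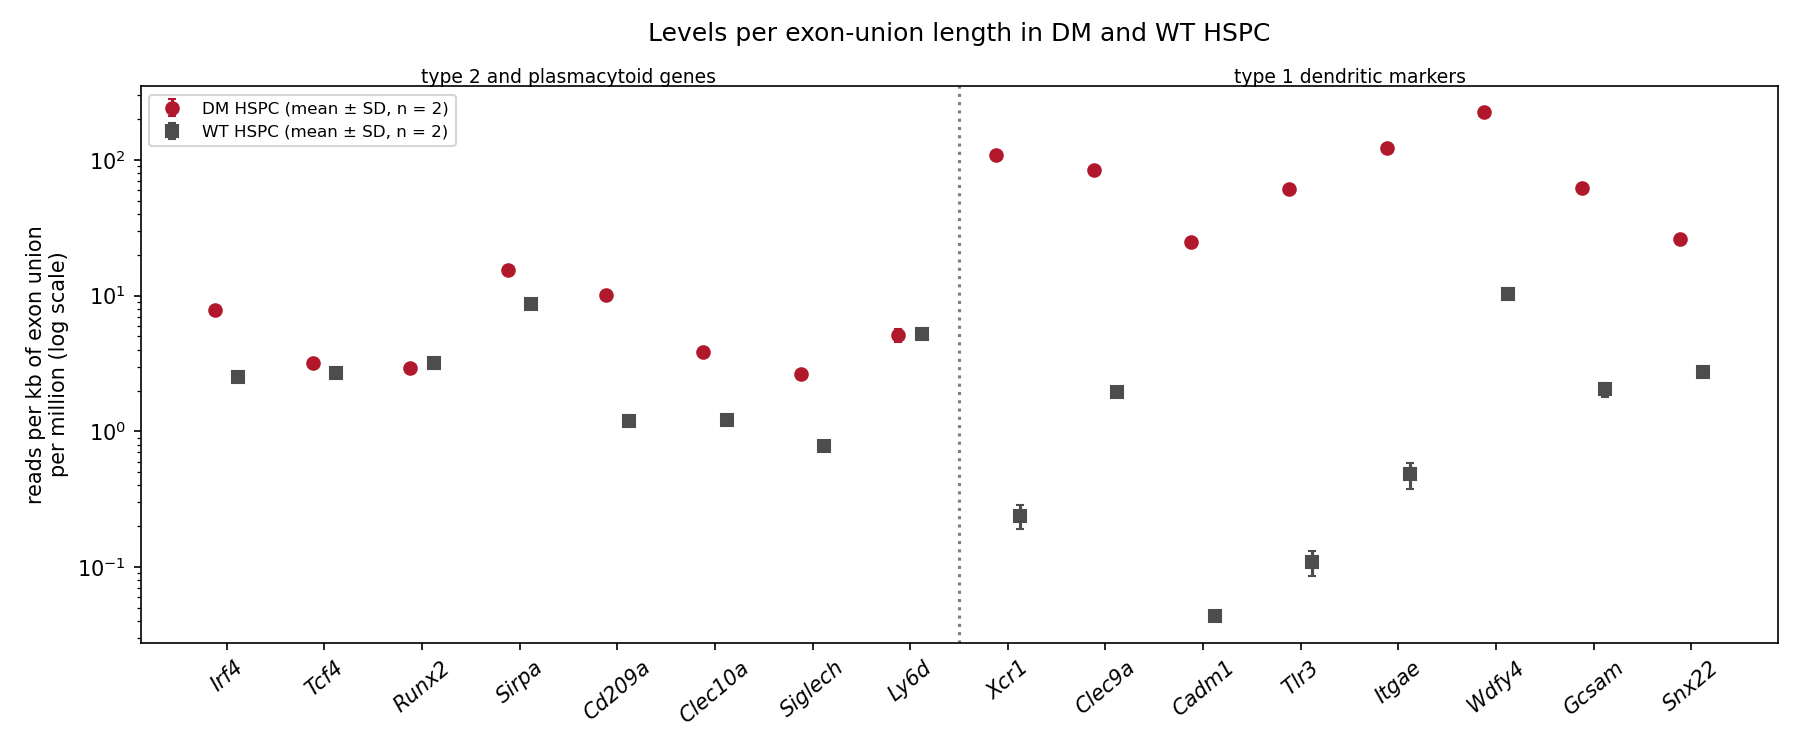
RPKM on the exon-union scale (vertical axis, log scale; mean ± SD, n = 2) in DM and WT HSPC for the 8 genes (left of the dotted line) and the 8 type 1 dendritic markers (right). In DM HSPC every type 1 marker, from 25 for Cadm1 upwards, lay above the highest of the 8 genes, Sirpa at 15.3, whereas in WT HSPC the 2 sets overlapped.

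The genes whose level was most alike over the 8 HSPC libraries are given as a description, since 8 libraries in 4 groups leave correlations set by the group means. Irf4 was closest to Agpat3 and Mccc2 (Pearson r of 0.993 each), Sirpa to Ly6e (0.999) and Klhl5 (0.997), Cd209a to the MHC class I-like genes H2-T22 and H2-M3 (0.996 each), and Clec10a to Pim1 (0.996) and Isg15 (0.995). Such values were common: 791 of 7870 candidate genes reached r of 0.95 with Cd209a, 644 of 7871 with Clec10a, 388 with Sirpa and 256 with Irf4. Ly6d stood apart from these, with Rab35 (0.957) as the only gene at that level and Plcl2 (0.95) next.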

How the data were processed

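RNA-seq was measured in 10 libraries in 5 groups of 2. Directional libraries were made from total RNA after ribosomal depletion, per the labels' protocols. STAR 2.4.0, HTSeq, DiffBind and mm10 are named per the submitters' processing notes, without roles. The counting rule, strand setting and annotation were not given in the sources used here. For every library the authors deposited RPKM values, without counts. Whole reads were recovered for 16654 of 16655 genes above 0 in at least 2 libraries, within a tolerance of 0.002 reads. Implied gene lengths were compared with GENCODE M21 on GRCm38.

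limma 3.58.1 (R 4.3.3) was run on log2(RPKM + 0.5) with a variance trend, two-sided, on genes reaching 1 RPKM in 2 or more libraries: 9702 genes in 8 HSPC libraries, or 10174 genes in all 10 for neutrophils. No replicate block was used. The exon-union scale was fitted in the same way, on 10099 and 10502 genes. Alternatives were pseudocounts of 0.1 and 1, no minimum, 2 rescalings, a replicate block, other samples in the fit, each library left out and voom on recovered reads. The exon-union length and the 2 treatments of Y-linked expression were added after the data were seen. The main fit of DM against WT HSPC and the recovery were tested on simulated data, and the other fits were not. The members and gene lists were chosen with earlier results of these data known. Named genes were all 8 members, their relatives and partners, up to 3 genes per list with the smallest adjusted p in DM against WT HSPC, and the 2 genes most correlated with each tested member, among genes with a highest group mean of at least 2 RPKM. Further genes of the lists (those that fell or rose alone, those tested through DM alone, and untested plasmacytoid genes) were named after their values were seen. P-values measure the spread between these libraries. Python 3.11.15, pandas 2.3.3, NumPy 2.4.6 and matplotlib 3.10.9 were used for tables and figures.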

Additional observations from a re-analysis of the deposited data

Results flagged for a closer look

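For 5 of the 8 genes the DM change differed from the sum of the 2 single-mutant changes, tested as an interaction in limma on the deposited log2 scale. The interaction was 3.26 for Cd209a, 2.86 for Irf4, 1.48 for Sirpa, 1.47 for Ly6d and 1.39 for Clec10a, each with both DM libraries above all 4 single-mutant libraries. Clec10a reached the minimum level only in DM, so its interaction is a size and no support. The sizes depended on the scale. On the exon-union scale the interaction was 3.31 for Irf4, 3.21 for Cd209a, 2.09 for Clec10a, 1.89 for Sirpa and 1.47 for Ly6d. Of all 9702 tested genes, 39.2% had a positive interaction and 66.8% had an interaction in either direction past the same threshold. The type 1 dendritic markers moved with these genes, with a median interaction of 5.33 relative to the median gene and 8 of 8 past the test, 4 of which reached the minimum only in DM, and their part in the values was not tested.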

How the results depend on the processing

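Of 681 values of a tested gene in a comparison under an alternative, 644 kept their direction and side of the threshold, 17 lost a call, 11 gained one and 9 changed sign. The 5 calls in Npm1c against WT HSPC, DM against Npm1c HSPC and the interaction stayed between 4 and 7 calls under all alternatives run. In Flt3-ITD against WT HSPC the count of 2 became 1 without a minimum level, 1 with an equal total of the listed genes, between 1 and 3 on leaving out single libraries, and 4 (1 higher, 3 lower) with both libraries that express Y-linked genes left out. In DM against WT HSPC leaving out single libraries gave 2 to 4 calls, with 2 of 4 tested genes called without DM replicate 1, where Clec10a no longer reached the minimum. In DM against Flt3-ITD HSPC the range was 3 to 5. In neutrophils against WT HSPC the count of 5 became 3 with an equal total of the listed genes, where Irf4 (0.074) and Ly6d (0.34) lost their calls. The sign changes, none of them a call in both settings, were Sirpa in Flt3-ITD against WT HSPC at 0.049 with median-of-ratios scaling and 0.26 without Flt3-ITD replicate 2 (-0.42 to 0.26 on leaving out single libraries), Clec10a in the same comparison at -0.012 without Flt3-ITD replicate 2 (-0.012 to 0.094), Ly6d in DM against WT HSPC at 0.28 with median-of-ratios scaling, 0.15 with an equal total, 0.0098 without WT HSPC replicate 1 and 0.069 without DM replicate 1 (-0.14 to 0.069), Runx2 in neutrophils at -0.16 with an equal total, and Cd209a in neutrophils at 0.12 with median-of-ratios scaling; beyond the scaling and the library named, the cause was not tested. The labels share replicate numbers only, same-numbered deviations correlated between -0.111 and 0.0360, and with the replicate number as a block the number of calls was the main one in all 7 comparisons (5 in Npm1c, 2 in Flt3-ITD and 4 in DM against WT HSPC). Over all tested genes, Flt3-ITD against WT HSPC had 180 higher and 3033 lower calls, against 811 and 933 with median-of-ratios scaling, 26 and 456 without WT HSPC replicate 1, 32 and 625 without WT HSPC replicate 2, 81 and 1970 without DM replicate 1, 81 and 1967 without DM replicate 2, 216 and 5450 without Flt3-ITD replicate 1, and 342 and 6231 without the libraries that express Y-linked genes. Npm1c against WT HSPC had 242 higher and 5638 lower calls, against 1772 and 1948 with median-of-ratios scaling, 183 and 3547 without Npm1c replicate 1, 136 and 3271 without WT HSPC replicate 1, and 101 and 3322 without WT HSPC replicate 2. Depth limits Clec10a in neutrophils (21 and 25 reads) and Cd209a in Npm1c HSPC (25 and 46 reads) most.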
